A study of Mus musculus with 9 samples.

Results

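Direct targets of the transcription factor p53 (gene Trp53), 10 in number, were followed across 9 microarrays of cells that mouse embryonic stem cells formed on the way to heart muscle. They were Cdkn1a, Ccng1, Btg2, Plk2, Mdm2, Eda2r, Trp53inp1, Aen, Sesn2 and Ddit4, taken as known p53 targets and read from the transcript clusters (the array's gene units) that carry exactly 1 gene symbol, brightest transcript cluster first, so that each was measured by 1 transcript cluster. They are 10 of the 14860 genes measured this way. All cells descended from 1 line, E14.1 of the 129/Ola background, and total RNA was hybridised to Affymetrix Mouse Exon 1.0 ST arrays, 3 for each of 3 groups. Differentiated progenitors had been sorted for the receptors Flk1 and Pdgfra, which gave the Flk1+Pdgfra+ group and, from cells with Flk1 but without Pdgfra, the group titled Flk1+. The cTnT+ group held cardiomyocytes, named for cardiac troponin T, that were grown onward from Flk1+Pdgfra+ cells; whether they were sorted is not stated, and no genotype change or drug is named for any group. Values are log2 expression levels, on which a step of 1 doubles the level, and levels of different genes were not set against each other because each depends on its own probes. The genes were chosen with their values on these arrays known, so their levels, their differences between arrays of a group and their group differences are given as a description without p-values.

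p53 is held low in unstressed cells because Mdm2, one of its own targets, marks it for degradation. DNA damage, loss of nucleotides, ribosome stress and other insults release it, and it then switches on genes that stop the cell cycle, start cell death, repair DNA or slow growth. In mouse embryonic stem cells and their early descendants the pathway is also known for removing damaged or unfit cells and for promoting differentiation. Several of its targets answer to other signals as well: Sesn2 and Ddit4, for example, are also induced by Atf4 in the integrated stress response, and Ddit4 by low oxygen.

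The DNA just before the start sites shows which of the 10 genes carry a close p53 motif there. In the RefSeq windows of assembly GRCm38.p6, which run from 250 bases before to 50 bases after an annotated start, 9 of the 10 genes had 1 or more windows, 11 in all. Each window was searched on both strands for the p53 decamer, the 10-base unit of the p53 response element, and for a full element of paired decamers with 0 to 13 bases between them. A decamer was present in windows of 4 genes, Cdkn1a, Mdm2, Ccng1 and Aen, and a full element in that of 1 gene, Cdkn1a. Of all 32851 windows 8.36% held a decamer and 0.0731%, or 24 windows, a full element. Counted by gene, 9.55% of the 27025 genes with windows held a decamer and 0.074% a full element. Of the other p53 targets described further on, 39 had windows and 9 of these held a decamer. The stretches below are the 250 bases before the start for the genes with a decamer upstream, and 30 bases around it for Aen, printed 5′ to 3′ on the strand of the gene, with the decamers in capitals.
Cdkn1a, upstream start, chr17:29090729-29090978, plus strand: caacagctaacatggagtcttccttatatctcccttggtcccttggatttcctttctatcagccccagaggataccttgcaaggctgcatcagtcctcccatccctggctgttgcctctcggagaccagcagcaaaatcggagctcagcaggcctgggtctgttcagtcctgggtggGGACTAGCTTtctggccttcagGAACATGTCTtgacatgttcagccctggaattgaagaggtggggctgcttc
Mdm2, chr10:117710759-117711008, minus strand: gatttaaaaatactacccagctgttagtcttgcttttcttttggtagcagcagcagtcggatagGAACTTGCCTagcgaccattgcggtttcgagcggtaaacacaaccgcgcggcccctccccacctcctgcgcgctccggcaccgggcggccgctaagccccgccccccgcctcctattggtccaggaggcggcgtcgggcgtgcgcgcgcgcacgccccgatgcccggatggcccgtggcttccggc
Ccng1, chr11:40755287-40755536, minus strand: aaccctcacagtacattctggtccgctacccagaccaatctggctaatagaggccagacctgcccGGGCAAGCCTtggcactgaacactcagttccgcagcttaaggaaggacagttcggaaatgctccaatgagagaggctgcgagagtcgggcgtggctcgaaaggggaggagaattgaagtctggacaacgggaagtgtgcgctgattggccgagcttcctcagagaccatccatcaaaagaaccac
Aen, chr7:78895927-78895956, plus strand: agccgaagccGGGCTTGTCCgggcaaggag

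In Cdkn1a the decamers began 73 and 51 bases before the upstream start, with 12 bases between them. Only exact matches were counted, so a neighbouring decamer with a mismatched base would stay in lower case and unpaired. In Mdm2 the decamer began 186 bases before the start and in Ccng1 185 bases before it. The Aen decamer lay 121 bases before 1 annotated start and just after the neighbouring one. The second Cdkn1a window and those of Btg2, Plk2, Eda2r, Sesn2 and Ddit4 held no decamer. A match of letters is a description of the sequence, and response elements elsewhere in a gene were not searched.

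The third arrays of both progenitor groups stood apart before any p53 target was considered. Correlations across all genes within a group were 0.987 to 0.997 in Flk1+Pdgfra+, 0.973 to 0.996 in Flk1+ and 0.983 to 0.987 in cTnT+; genes are not independent replicates. All 7 measured endothelial markers lay lower on the third array than on the other arrays of the same group in both progenitor groups. Their levels, summed on the linear scale, ranged from 676 to 3070 in Flk1+Pdgfra+, from 13600 to 26400 in Flk1+ and from 9290 to 15100 in cTnT+. All 8 markers of undifferentiated stem cells lay higher on the third Flk1+ array. Pou5f1, which encodes the pluripotency factor Oct4, read 6.69, 7.41 and 10.73 on Flk1+ arrays 1, 2 and 3, and Nanog, another pluripotency factor, read 6.21, 6.43 and 10.99. The summed stem-cell markers ranged from 803 to 7940 in Flk1+, from 10800 to 16600 in Flk1+Pdgfra+ and from 1000 to 3660 in cTnT+, and none was at 0. In bulk RNA, more cells of a type and more RNA of that type per cell cannot be told apart. By limma at an adjusted p under 0.05, the 7 cardiomyocyte markers rose in cTnT+ against each progenitor group, and the 7 endothelial markers fell in Flk1+Pdgfra+ against Flk1+. Other cell types moved with the cTnT+ comparisons: of 7 smooth muscle and fibroblast markers 5 rose against Flk1+Pdgfra+ and 6 against Flk1+ (median differences of 2.83 and 2.87), and of the endothelial markers 5 rose against Flk1+Pdgfra+ (median 2.55), while 1 rose and 2 fell against Flk1+. The third cTnT+ array stood apart in such markers too, with 6 of 7 cardiomyocyte markers below both other arrays (median -0.82) and 6 of 7 smooth muscle and fibroblast markers above both (median 1.08). The part of these cells in the cTnT+ values of the p53 targets was not tested. Group comparisons below are therefore also given from replicates 1 and 2 alone.

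Cdkn1a encodes p21, the inhibitor of cyclin-dependent kinases through which p53 halts the cell cycle. It read 10.25, 10.47 and 12.18 on Flk1+Pdgfra+ arrays 1, 2 and 3, 10.99, 11.33 and 12.44 on the Flk1+ arrays, and 11.19, 11.58 and 11.80 on the cTnT+ arrays. Replicate 3 was the highest of each group, and the third arrays of both progenitor groups exceeded every cTnT+ array. The third array lay 1.81 above the mean of the first and second in Flk1+Pdgfra+, a 3.52-fold difference, 1.28 above it in Flk1+ (2.44-fold) and 0.41 above it in cTnT+ (1.33-fold).

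Ccng1 encodes cyclin G1, an atypical cyclin that works with the phosphatase PP2A and acts back on Mdm2 and p53. Its levels were 12.49, 12.55 and 13.26 in Flk1+Pdgfra+, 12.57, 12.74 and 13.35 in Flk1+, and 12.88, 12.71 and 13.08 in cTnT+. The third array was again the highest of each group, by 0.74, 0.69 and 0.28 over the mean of the others, and all 3 groups overlapped.

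Btg2 encodes an antiproliferative protein that recruits the enzymes shortening messenger RNA tails. It read 10.03, 10.26 and 11.95 in Flk1+Pdgfra+, 10.15, 10.50 and 12.00 in Flk1+, and 9.77, 10.22 and 10.22 in cTnT+. The third progenitor arrays stood 3.51-fold and 3.19-fold above the mean of their first and second arrays, while the cTnT+ arrays lay within the range of the first and second progenitor arrays or below it.

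Plk2 encodes a polo-like kinase that takes part in centriole duplication and in the response to stress. Its levels were 7.99, 8.39 and 10.40 in Flk1+Pdgfra+, 10.02, 10.27 and 10.80 in Flk1+, and 9.91, 9.72 and 10.66 in cTnT+. Of the 10 members it alone differed more on the third array in cTnT+ (0.85) than in Flk1+ (0.66), and it differed most in Flk1+Pdgfra+ (2.21, 4.64-fold). The first and second Flk1+Pdgfra+ arrays were the lowest of all 9.

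Mdm2, the ubiquitin ligase that closes the feedback loop on p53, read 10.44, 10.46 and 11.43 in Flk1+Pdgfra+, 10.87, 11.14 and 12.06 in Flk1+, and 10.57, 10.55 and 10.94 in cTnT+. The third array lay 0.98 above the mean of the others in Flk1+Pdgfra+ (1.97-fold), 1.06 above in Flk1+ (2.08-fold) and 0.38 above in cTnT+. The third Flk1+ array was the highest of all 9.

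**Figure D1:**
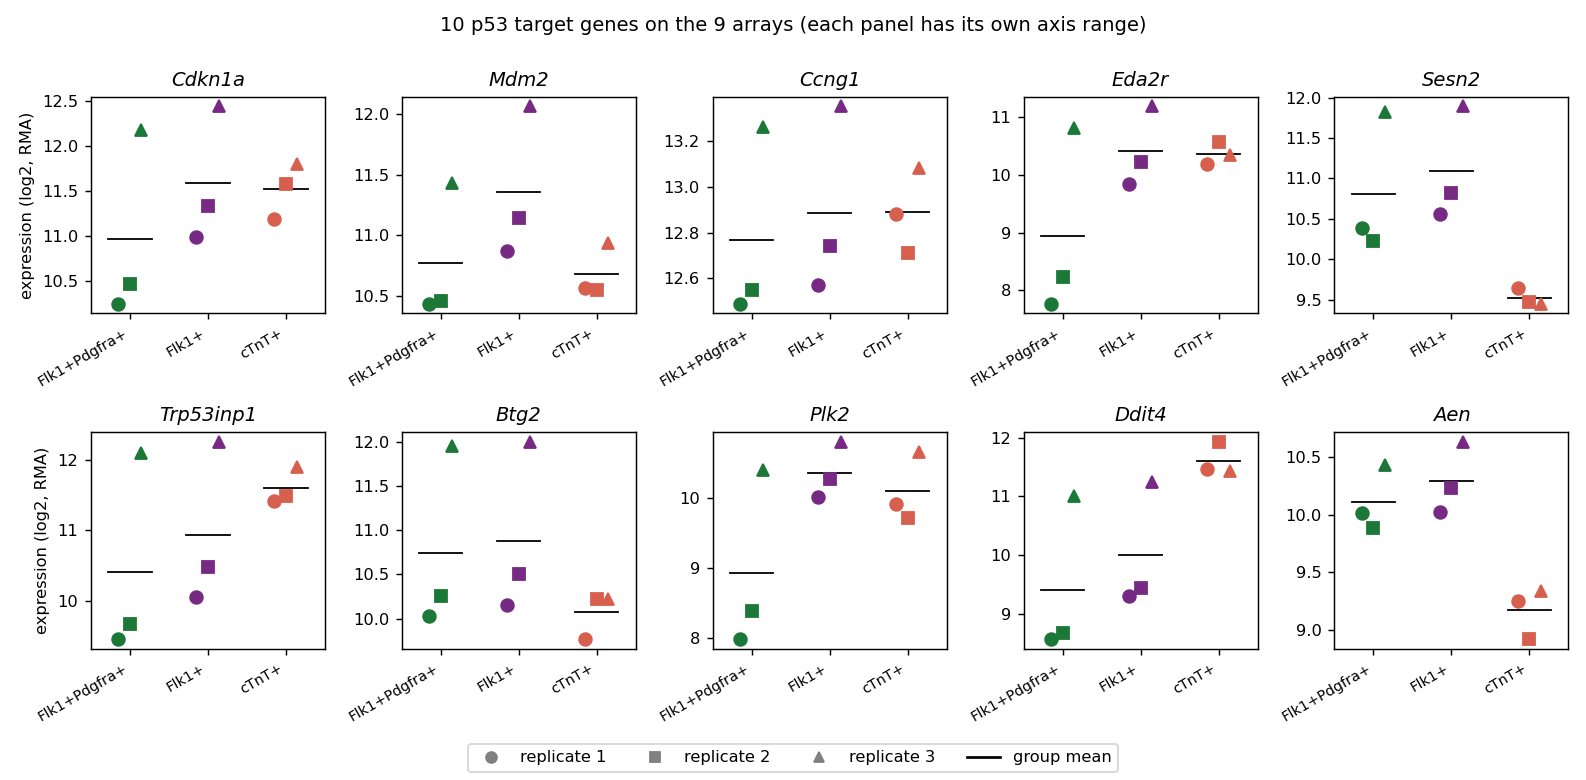
Log2 level of each of the 10 p53 targets on every array, 1 panel per gene, with arrays grouped as Flk1+Pdgfra+, Flk1+ and cTnT+ and the replicate number of each point shown. In both progenitor groups the third array is the highest of its group for all 10 genes; in cTnT+ it is the highest for 6.

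Of the members tied to cell death, Eda2r encodes a receptor of the tumour necrosis factor family that binds ectodysplasin A2. It read 7.77, 8.23 and 10.82 in Flk1+Pdgfra+, 9.84, 10.23 and 11.19 in Flk1+, and 10.19, 10.57 and 10.35 in cTnT+. The third Flk1+Pdgfra+ array lay 2.83 above the mean of the first and second, 7.09-fold, which ranked 4 among the 14860 genes there. In Flk1+ the difference was 1.15 (2.22-fold), and in cTnT+ it was -0.03, with the third array between the others.

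Trp53inp1 encodes a nuclear protein that promotes p53-dependent cell death and, in the cytoplasm, autophagy. Its levels were 9.46, 9.67 and 12.09 in Flk1+Pdgfra+, 10.06, 10.48 and 12.25 in Flk1+, and 11.42, 11.49 and 11.89 in cTnT+. The third array lay 2.52 (5.76-fold) above the mean of the others in Flk1+Pdgfra+, rank 10 among all genes, 1.98 (3.95-fold) above it in Flk1+, rank 147, and 0.44 above it in cTnT+. The first and second progenitor arrays lay below every cTnT+ array and the third progenitor arrays above every one.

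Aen encodes a nuclease that enhances apoptosis. It read 10.01, 9.88 and 10.43 in Flk1+Pdgfra+, 10.02, 10.23 and 10.63 in Flk1+, and 9.25, 8.92 and 9.34 in cTnT+. The third array lay 0.48, 0.50 and 0.25 above the mean of the others, less than for any other member in the progenitor groups, and all 3 cTnT+ arrays lay below all 6 progenitor arrays.

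The last pair of members restrain growth through the kinase complex mTORC1. Sesn2, sestrin 2, which senses leucine and counters oxidative stress, read 10.38, 10.23 and 11.82 in Flk1+Pdgfra+, 10.56, 10.82 and 11.89 in Flk1+, and 9.64, 9.47 and 9.45 in cTnT+. The third array differed from the mean of the others by 1.51 in Flk1+Pdgfra+ (2.85-fold), by 1.20 in Flk1+ (2.30-fold) and by -0.11 in cTnT+, where it was the lowest of the group.

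Ddit4, also called REDD1, read 8.57, 8.67 and 11.00 in Flk1+Pdgfra+, 9.30, 9.44 and 11.25 in Flk1+, and 11.46, 11.93 and 11.44 in cTnT+. The third progenitor arrays stood 5.18-fold and 3.69-fold above the mean of the first and second and came close to the cTnT+ level, whereas the third cTnT+ array was the lowest of its group. Every cTnT+ array lay above every progenitor array.

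Over the 10 members the third array exceeded both others in 10 of 10 genes in Flk1+Pdgfra+, 10 of 10 in Flk1+ and 6 of 10 in cTnT+, where 2 lay below both. Among all genes 44.9%, 40% and 39% lay above both, and 28.3% lay below both in cTnT+. In neither progenitor group did a member lie below both, where 34% and 41.9% of all genes did. It exceeded both others in both progenitor groups for 10 members against 25.7% of all genes, and by at least 1 log2 step in both for 6 members against 1.13% (168 genes). In cTnT+ 0 members reached that step, against 2.16% of all genes. The third array exceeded both others by any amount in all 3 groups for 6 members against 9.92% of all genes. The members' median difference was 1.81 in Flk1+Pdgfra+, 1.18 in Flk1+ and 0.27 in cTnT+, and that of all genes was 0.02, -0.01 and 0.03. These shares stand beside the counts for scale only, because the members were chosen for these values, and a single array set against the others of its group allows no test. Centring every array on its median, an alternative added after the values were seen, lowers these differences by 0.08 in Flk1+Pdgfra+, 0.30 in Flk1+ and 0.03 in cTnT+ for every gene, and the members still lay above both others in 10 of 10, 10 of 10 and 6 of 10 genes. The step of 1 in both progenitor groups was then reached by 3 members, Btg2, Ddit4 and Trp53inp1, against 0.767% of all genes. Each member's progenitor difference was larger than the gap between its first and second arrays, which was 0.02 to 0.46 in Flk1+Pdgfra+ and 0.14 to 0.42 in Flk1+; in cTnT+ this held for 5 of 10.

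**Figure D2:**
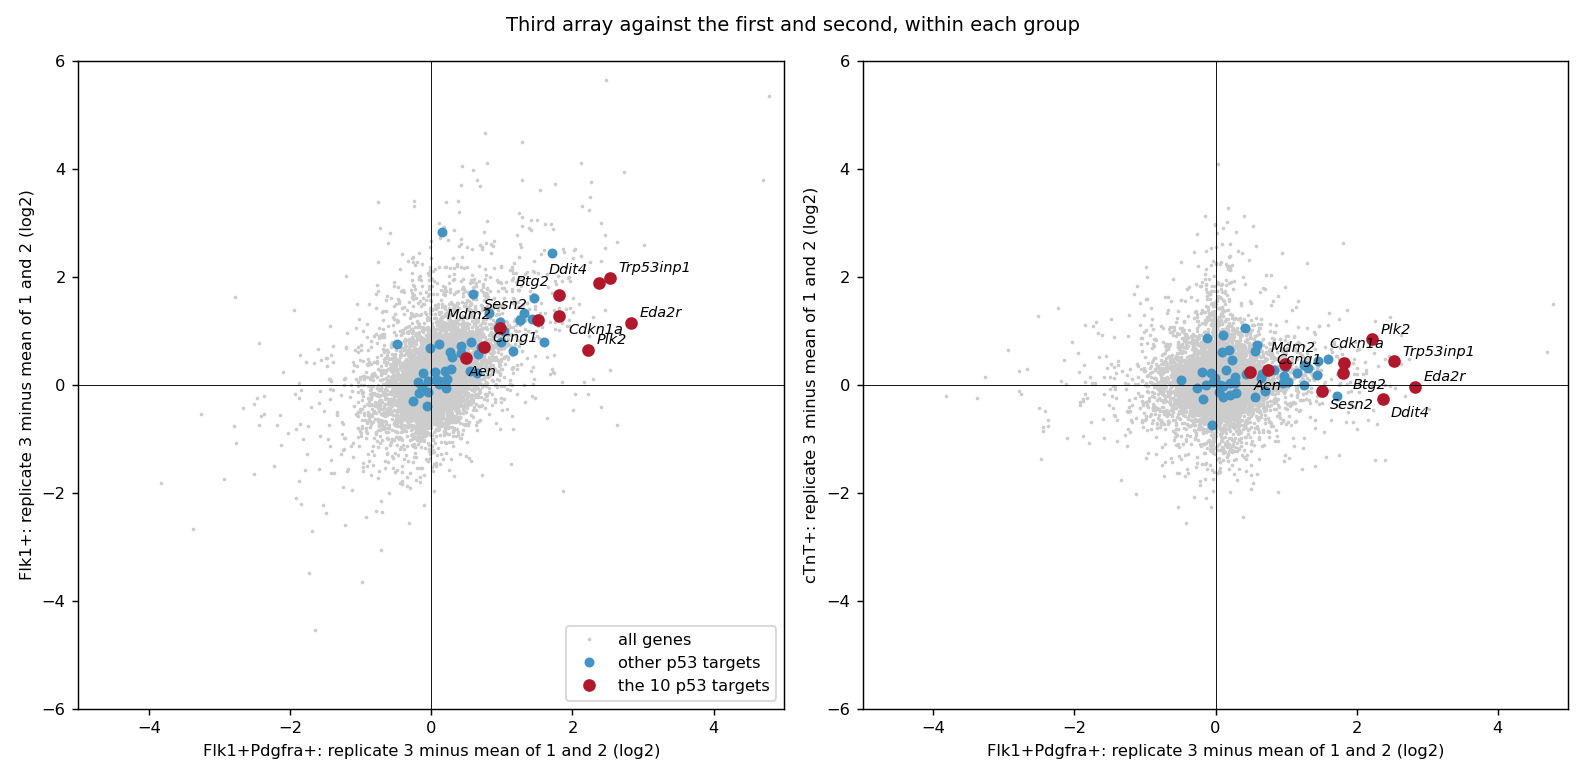
Difference (log2) between the third array and the mean of the first and second in Flk1+Pdgfra+ on the horizontal axis, against the same in Flk1+ (left) and cTnT+ (right), 1 point per gene, with the 10 members named and the other p53 targets in blue. All 10 members lie right of 0 and, in the left panel, above it; in the right panel they lie between -0.26 and 0.85.

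The gap between the progenitor groups was smallest on the third arrays for 7 of the 10 members. The median gap over the members, Flk1+Pdgfra+ minus Flk1+, was -0.51 at replicate 1, -0.72 at replicate 2 and -0.22 at replicate 3. For Eda2r it was -2.08, -2.00 and -0.36, and for Plk2 -2.03, -1.88 and -0.40. For Btg2 the gap was -0.13, -0.24 and -0.05. The others, Mdm2 (-0.43, -0.67 and -0.63), Aen (-0.01, -0.35 and -0.20) and Ccng1 (-0.08, -0.18 and -0.09), had the smallest gap at replicate 1. At each number all 10 members were lower in Flk1+Pdgfra+, as were 20.6% of all genes at all 3 numbers.

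Other p53 targets were set beside the 10. Of 54 further targets, listed with earlier results of these data known, 45 were measured. They are what remained beside the chosen members, so their shares beside all genes are for scale only. On the third array 34 of the 45 lay above both others in Flk1+Pdgfra+, 35 in Flk1+ and 24 in cTnT+, and 30, or 66.7%, did so in both progenitor groups, while 2 lay below in both; of all genes 25.7% and 19.8% did. With the arrays centred on their medians 22 of the 45 lay above in both, against 11.2% of all genes. In that setting 7 of the 45 lay below in both, against 6484 of the 14860 genes. Their median differences were 0.28, 0.59 and 0.14, smaller than those of the 10 members. By role, 8 of 13 arrest and feedback genes, 12 of 15 cell-death genes and 10 of 17 repair, redox and metabolism genes were above in both progenitor groups.

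At least 1 log2 step in both progenitor groups was reached by 7 of the 45, which were named after their values were seen. Ak1, an adenylate kinase, differed by 1.71 in Flk1+Pdgfra+, 2.44 in Flk1+ and -0.21 in cTnT+. Dcxr, a carbonyl reductase, differed by 1.45, 1.61 and 0.45. Zmat3, an RNA-binding protein, differed by 1.43, 1.23 and 0.18. The others were Ephx1, an epoxide hydrolase (1.31 and 1.33 in the progenitors), Slc19a2, a thiamine transporter (1.26 and 1.21), Polk, a translesion DNA polymerase (1.26 and 1.20), and Abhd4, a lipase (1.02 and 1.00). With the arrays centred on their medians 3 of the 45 reached it: Ak1, Dcxr and Ephx1.

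The pattern was not shared by every target. Pmaip1, the death activator Noxa, differed by -0.06 in Flk1+Pdgfra+ and -0.40 in Flk1+. Bbc3, the death activator Puma, differed by 0.56, 0.26 and -0.22, and Ppm1d, the phosphatase Wip1 that dampens p53, by 0.27, 0.61 and 0.03. In Perp, a junction protein, the Flk1+ difference was 2.83 and the Flk1+Pdgfra+ difference 0.15, while Tgfa, a growth factor, differed by -0.48 in Flk1+Pdgfra+ and 0.75 in Flk1+; these were also picked after their values were seen. Trp53 itself and Bax were not analysed here.

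**Figure D3:**
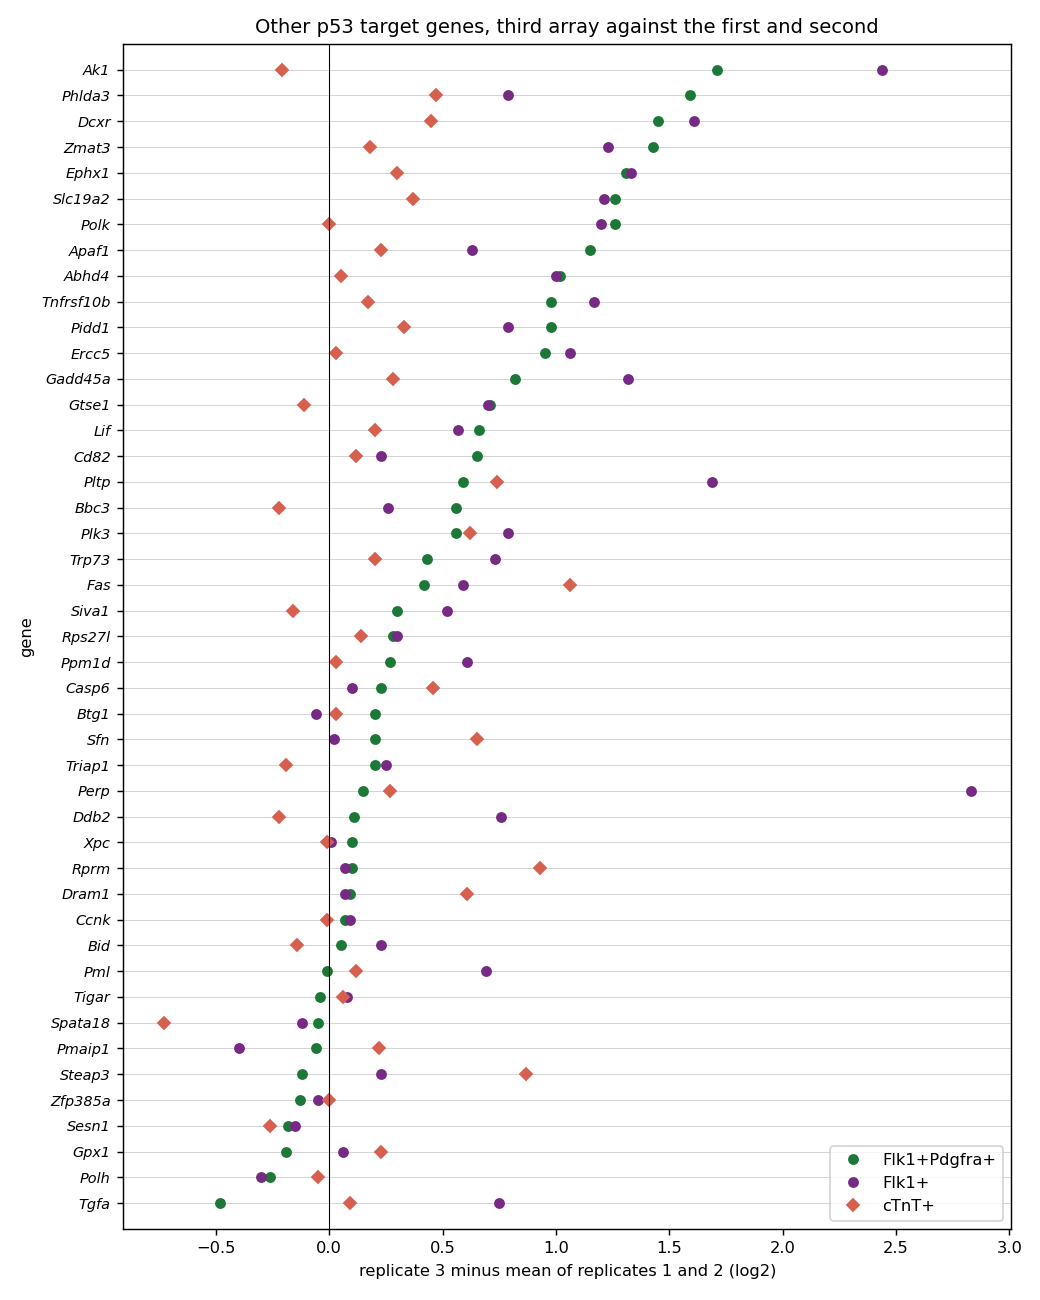
Difference (log2) between the third array and the mean of the first and second for the 45 other measured p53 targets, 1 line per gene and 1 point per group, ordered by the value in Flk1+Pdgfra+. Most progenitor points lie right of 0, from Ak1 at 1.71 and 2.44 down to Tgfa at -0.48 in Flk1+Pdgfra+.

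Other gene groups differed on the third arrays as well. Beside them, 25.7% of all genes lay above both others in both progenitor groups. Of 13 genes of the Atf4 and integrated stress response, 12 lay above both others in both progenitor groups, with median differences of 0.68, 0.63 and, in cTnT+, -0.18. Chac1, a glutathione-degrading enzyme of that response, read 9.76, 9.46 and 11.55 in Flk1+Pdgfra+ and 9.93, 9.85 and 10.98 in Flk1+. Of 11 immediate early genes, 9 lay above in both progenitor groups, with medians of 0.57, 0.97 and, in cTnT+, -0.20. Of 13 hypoxia genes 1 did, with medians of -0.03, -0.10 and -0.44. Summed on the linear scale, the Atf4 list ranged from 14400 to 24900 in Flk1+Pdgfra+, from 14100 to 22800 in Flk1+ and from 8270 to 12800 in cTnT+. The immediate early list ranged from 6680 to 13300, from 7740 to 15800 and from 7560 to 9420.

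Of 13 cell-cycle genes known to be repressed through p21, none lay above both others in both progenitor groups and 7 lay below both in both, with median differences of -0.05, -0.13 and -0.26. Of all genes 25.7% lay above both and 19.8% below both in both progenitor groups. The 17 measured p53 regulators had medians of 0.10, 0.06 and -0.05, and 8 of them lay above in both progenitor groups. After centring 2 of them did, against 11.2% of all genes. Among cell-type markers, the medians in the progenitor groups were -2.12 and -1.11 for endothelium, 0.09 and 2.70 for undifferentiated stem cells, 0.18 and 1.13 for nascent mesoderm, and 0.11 and 1.57 for smooth muscle and fibroblasts. For blood they were -0.15 and -1.04, for cardiomyocytes 0.04 and 0.10, for endoderm -0.19 and -0.18, and for neural cells 0.43 and 0.46. The part of the stress genes and of these cell types in the p53 target values was not tested.

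**Figure D4:**
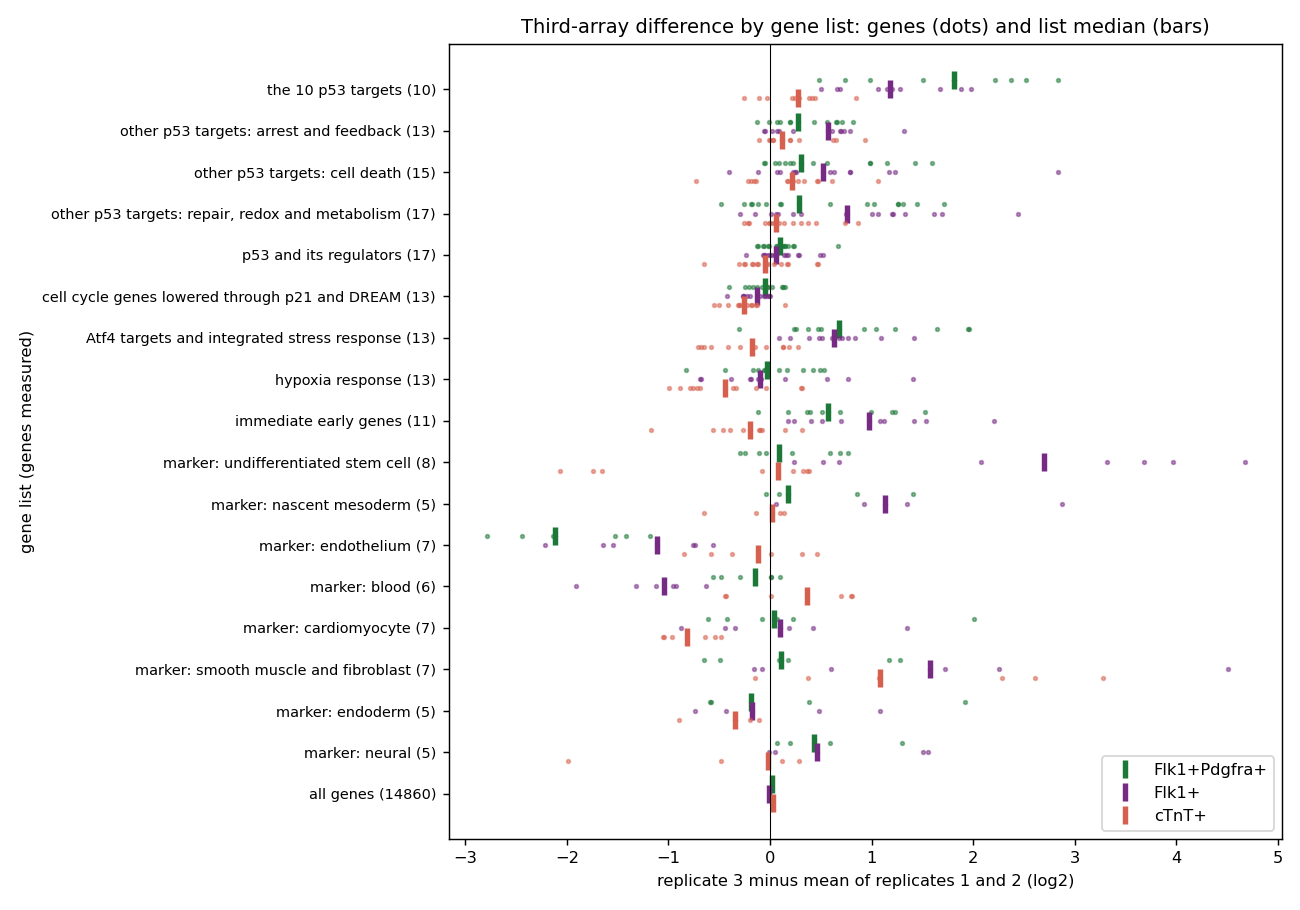
Median over each gene list of the difference (log2) between the third array and the mean of the first and second, 1 point per group. The 10 p53 targets lie at 1.81, 1.18 and 0.27; endothelial markers lie at -2.12 and -1.11 in the progenitor groups and stem-cell markers at 2.70 in Flk1+.

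Between the progenitor groups, every member had the lower mean in Flk1+Pdgfra+ with all arrays, but the third arrays widened the spread within both groups. Some of these signs changed under the alternatives given at the end. The largest differences were in Eda2r, -1.48 ± 0.73 on the log2 scale (standard error of the limma fit without pairing, n = 3 arrays each), and Plk2, -1.44 ± 0.58. Those of Cdkn1a, -0.62 ± 0.54, Mdm2, -0.58 ± 0.36, Ddit4, -0.58 ± 0.72, and Trp53inp1, -0.52 ± 0.76, were about the size of their error. Sesn2 (-0.27 ± 0.46), Aen (-0.19 ± 0.20), Btg2 (-0.14 ± 0.59) and Ccng1 (-0.12 ± 0.26) differed by less than it. No member's arrays separated the groups completely, against 34.3% of all genes. From replicates 1 and 2 alone the differences were -2.04 for Eda2r, -1.95 for Plk2, -0.80 for Cdkn1a and -0.55 for Mdm2. The median over the members was -0.55 with all arrays and -0.63 from replicates 1 and 2, against 0.07 for all genes.

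The other 45 targets, listed with earlier results of these data known, were tested with limma at an adjusted p under 0.05. They are what remained beside the chosen members, so their shares beside all genes are for scale only. In Flk1+Pdgfra+ against Flk1+ 1 rose and 2 fell, which is 6.67% beside 10.5% of all genes (4.64% rose and 5.87% fell). Btg1, an antiproliferative relative of Btg2, was at 10.64, 10.68 and 10.86 against 11.47, 11.43 and 11.39, without overlap, and fell by 0.70 (standard error 0.09, adjusted p = 0.00335 by limma). Pmaip1 rose 1.63-fold (adjusted p = 0.0209 by limma, passing in 13 of 19 alternatives with adjusted p from 9.71e-05 to 0.0833). Zfp385a, a zinc-finger protein that binds p53, fell by 0.43 (adjusted p = 0.0198 by limma, passing in 11 of 19 alternatives, with adjusted p from 0.00207 to 0.117). Plk3, a stress-responsive polo-like kinase, differed by -0.56 and did not pass with all arrays (adjusted p = 0.321 by limma). It passed in 3 of 19 alternatives, with adjusted p from 0.00922 to 0.607. The replicate block was among these 3 (adjusted p = 0.0487 by limma).

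In cTnT+ against Flk1+Pdgfra+ the differences had both signs. Ddit4 differed by 2.19 ± 0.72 (standard error, log2), Eda2r by 1.43 ± 0.73, Trp53inp1 by 1.19 ± 0.76, Plk2 by 1.17 ± 0.58 and Cdkn1a by 0.55 ± 0.54. Sesn2 differed by -1.29 ± 0.46, Aen by -0.94 ± 0.20 and Btg2 by -0.68 ± 0.59, while Mdm2 (-0.10 ± 0.36) and Ccng1 (0.13 ± 0.26) differed by less than their error. The arrays of 3 members did not overlap, Sesn2, Ddit4 and Aen, against 54.9% of all genes. From replicates 1 and 2 alone the differences were 3.07 for Ddit4, 2.38 for Eda2r, 1.89 for Trp53inp1, 1.62 for Plk2, 1.02 for Cdkn1a, -0.75 for Sesn2 and -0.86 for Aen.

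Against Flk1+, cTnT+ cells differed by 1.61 ± 0.72 in Ddit4, 0.67 ± 0.76 in Trp53inp1, -1.57 ± 0.46 in Sesn2 and -1.12 ± 0.20 in Aen. Btg2 differed by -0.82 ± 0.59, Mdm2 by -0.67 ± 0.36 and Plk2 by -0.27 ± 0.58. Cdkn1a (-0.07 ± 0.54), Eda2r (-0.05 ± 0.73) and Ccng1 (0.01 ± 0.26) lay within their error of 0. The arrays of 3 members did not overlap, against 47.4% of all genes. From replicates 1 and 2 alone the differences were 2.33 for Ddit4, 1.18 for Trp53inp1, -1.13 for Sesn2 and -1.04 for Aen. Both cTnT+ comparisons use the same cTnT+ arrays.

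**Figure D5:**
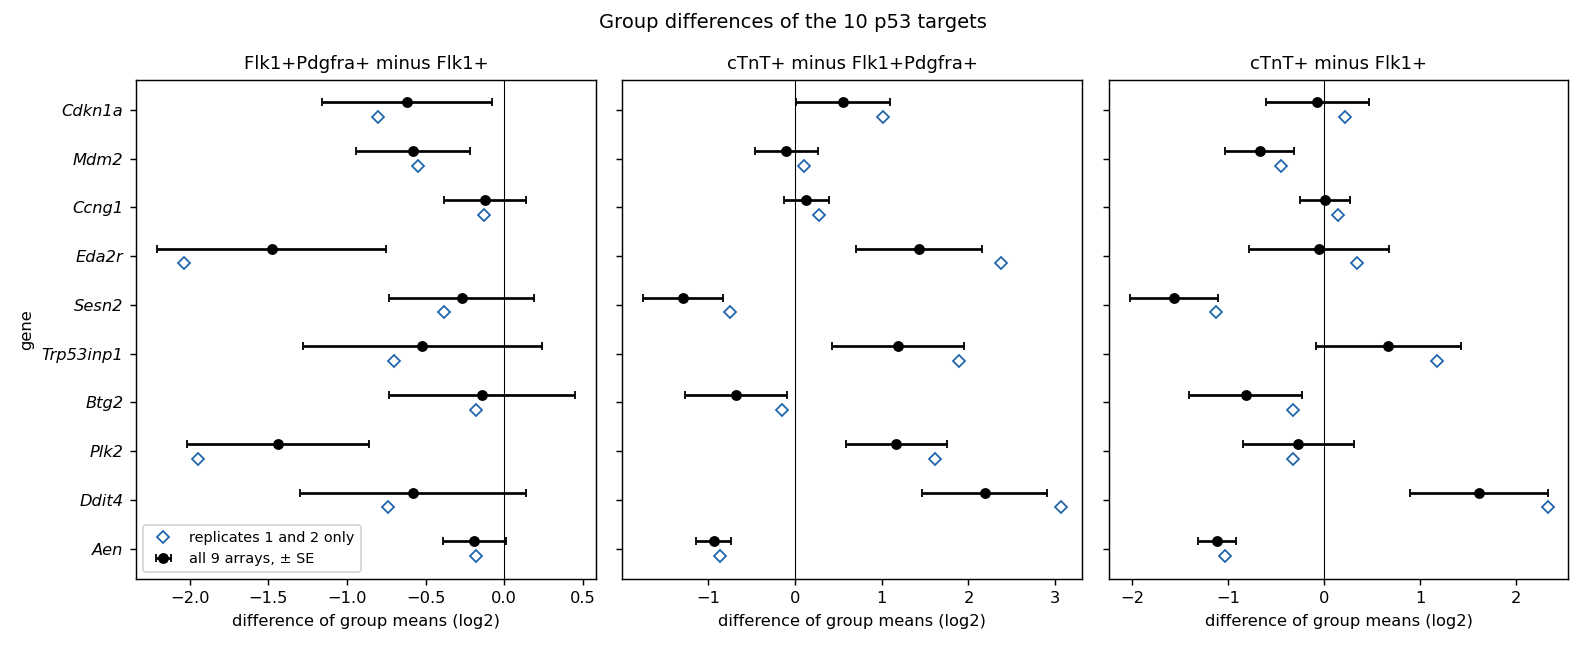
Difference between group means (log2) for each of the 10 members in the 3 comparisons, from all 9 arrays with its standard error and from replicates 1 and 2 only. All members lie below 0 in Flk1+Pdgfra+ minus Flk1+; against both progenitor groups Ddit4 lies above 0 and Sesn2 and Aen below it.

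Ddit4 is also a hypoxia gene, and of the 13 measured hypoxia genes 11 rose in cTnT+ and 0 fell against each progenitor group. Of all genes 41.2% were called against Flk1+Pdgfra+ (22.5% rose and 18.7% fell). Against Flk1+ 39.2% were called (22.6% rose and 16.6% fell). Pdk1, the kinase that shuts off pyruvate entry into mitochondria, rose 20.2-fold against Flk1+Pdgfra+ (adjusted p = 2.86e-05 by limma), and Adm, the peptide adrenomedullin, rose 10.6-fold (adjusted p = 1.32e-05). Of the Atf4 list 1 gene rose and 5 fell in cTnT+ against Flk1+Pdgfra+ (46.2% called), and 1 rose and 6 fell against Flk1+ (53.8%). Chac1 fell 3.41-fold against Flk1+Pdgfra+ (adjusted p = 0.0338 by limma, passing in 13 of 18 alternatives with adjusted p from 0.00691 to 0.101). Of the immediate early genes 2 rose and 3 fell against Flk1+Pdgfra+ (45.5% called), and 1 rose and 2 fell against Flk1+ (27.3%). Their part in the Ddit4 and Sesn2 values was not tested.

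Among the other 45 targets, 11 rose and 8 fell in cTnT+ against Flk1+Pdgfra+ (42.2% beside 41.2% of all genes, split into 22.5% that rose and 18.7% that fell). Against Flk1+ 10 rose and 7 fell (37.8% beside 39.2%, split into 22.6% and 16.6%). With median centring they split 8 and 13 against Flk1+Pdgfra+ and 8 and 15 against Flk1+, and with quantile normalization 8 and 11, and 8 and 12. Of all called genes 54.7% and 57.7% rose in these comparisons, and 26.9% and 28.8% with median centring. Cd82, a tetraspanin that restrains cell migration, read 7.25, 7.32 and 7.93 in Flk1+Pdgfra+, 8.06, 8.12 and 8.32 in Flk1+, and 10.09, 11.40 and 10.86 in cTnT+. It rose 9.74-fold against the first (adjusted p = 0.000109 by limma) and 6.14-fold against the second (adjusted p = 0.000392). Plk3 read 6.37, 7.10 and 7.36 in cTnT+ and at least 8.34 on every progenitor array, 3.12-fold lower than Flk1+Pdgfra+ (adjusted p = 0.00377 by limma) and 4.59-fold lower than Flk1+ (adjusted p = 0.001).

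Fas, the death receptor, rose 3.32-fold and 3.72-fold (adjusted p = 0.00597 and 0.00417 by limma), but its progenitor levels of 4.46 to 5.30 lay under the arrays' lower quartiles of 5.60 to 5.69, so these folds are no exact measures. Pltp, which transfers phospholipids between lipoproteins, rose 3.40-fold against Flk1+Pdgfra+ (adjusted p = 0.018 by limma) and 3.12-fold against Flk1+ (adjusted p = 0.026), with adjusted p up to 0.0618 and 0.0928 over the alternatives. Ephx1 rose 2.68-fold against Flk1+Pdgfra+ (adjusted p = 0.0449 by limma, passing in 11 of 18 alternatives, from 0.00543 to 0.148). Ak1 rose 4.23-fold against Flk1+ (adjusted p = 0.0459 by limma, passing in 10 of 18, from 0.000128 to 0.144). Btg1 rose 2.21-fold against Flk1+Pdgfra+ (adjusted p = 4.6e-05 by limma).

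Of 24 listed genes for p53 and the proteins that act on it, the RNA of 17 was measured. In Flk1+Pdgfra+ against Flk1+ 1 fell and none rose: Ppp1r13b, encoding ASPP1, which steers p53 to death genes, read 8.55, 8.88 and 8.70 against 11.10, 11.18 and 11.21, 5.48-fold lower (adjusted p = 0.00022 by limma). The share called was 5.88% beside 10.5% of all genes. At an unadjusted p under 0.05 by limma there were 5 of the 17, beside 3843 of the 14860 genes. In cTnT+ 3 rose and 6 fell against Flk1+Pdgfra+ (52.9% called beside 41.2% of all genes). Against Flk1+ 3 rose and 7 fell (58.8% beside 39.2%). The checkpoint kinase Chek2 fell 2.55-fold and 2.60-fold (adjusted p = 6.09e-05 and 7.54e-05 by limma), and Chek1 fell 2.41-fold and 2.07-fold (adjusted p = 2.72e-05 and 8.58e-05). Sirt1, a deacetylase that acts on p53, fell 2.08-fold and 1.82-fold (adjusted p = 3.42e-05 and 0.000118 by limma), and Atm, the kinase that senses DNA breaks, fell 1.76-fold and 1.77-fold (adjusted p = 0.000359 and 0.000415). Mdm4, the partner of Mdm2 that masks p53, differed by -0.23 in both and passed in neither (adjusted p = 0.0918 and 0.1 by limma). Ppp1r13b rose 3.97-fold in cTnT+ against Flk1+Pdgfra+ (adjusted p = 1.97e-05 by limma).

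Of the 13 measured cell-cycle genes that p21 represses, 9 fell in cTnT+ against Flk1+Pdgfra+ and 8 against Flk1+, and none rose. Of all genes 18.7% and 16.6% fell in these comparisons. A part of p21 in these values was not tested. Cdc20, an activator of the anaphase-promoting complex, fell 1.85-fold and 1.80-fold (adjusted p = 0.00253 and 0.00349 by limma), and Aurka, a mitotic kinase, fell 1.63-fold and 1.50-fold (adjusted p = 0.00399 and 0.0106). Between the progenitor groups 0 of the 13 were called by limma, beside 10.5% of all genes. An unadjusted p under 0.05 by limma was found for 1 of the 13, beside 3843 of the 14860 genes.

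The genes most like Cdkn1a were ranked by Pearson correlation over the 9 arrays, among the 7420 genes whose spread was at or above the median. Over the 9 levels these were Lif (0.961), Polk (0.959), Prrg4 (0.950), Glipr2 (0.949) and Zmat3 (0.943), of which Lif, Polk and Zmat3 are on the list of other p53 targets; Lif levels of 5.40 to 6.35 were near the arrays' lower quartiles. After subtraction of group means, which leaves differences within groups, they were Mettl6 (0.992), Cdh20 (0.991), Zfp385b (0.989), Scarb2 (0.989) and Wnt2b (0.988). The members then had correlations with Cdkn1a from 0.823 for Aen to 0.989 for Trp53inp1. Over the uncentred levels the members ran from 0.214 for Aen and 0.445 for Sesn2 to 0.943 for Trp53inp1. The 9 points share their groups and, after centring, the third progenitor arrays, so these values describe the arrays only.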

How the data were processed

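Groups and replicate numbers came from the array titles. The deposited log2 values were made by the authors as RMA values for core genes in the TAC software, per the labels. RMA and R 3.3.1 are listed in the submitters' processing notes. RMA evens out the probe signals between arrays before summarising them by gene. The sources used here name no library version; the genome build is likewise not given. Of 23332 transcript clusters 14996 carried 1 symbol; symbols were updated through RefSeq identifiers (14941 matched), the brightest transcript cluster per gene was kept, and 14860 genes remained. Array medians over all 23332 transcript clusters still ran from 7.26 to 7.53. The number of arrays limits the precision, and separate cultures are not stated, so p-values reflect the spread among these arrays, which may be technical.

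Groups were compared in limma 3.58.1 under R 4.3.3 (moderated linear models, two-sided, all 9 arrays, 6 residual and 2.23 prior degrees of freedom), tested on simulated data, with Benjamini-Hochberg adjustment over all genes and a threshold of 0.05. The third array was set against the mean of the first and second as a difference of log2 values. Members and gene lists were chosen with earlier results of these data known. Genes named were all members, up to 5 called genes of each p53 list or, with none called, that with the smallest p, up to 3 of each other list, Mdm4, Bbc3, Ppm1d and Zmat3, and the 5 most like Cdkn1a. Other genes are marked as picked later, apart from those that introduce the arrays.

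Deviations from group means correlated at 0.251, 0.325 and 0.46 between same-numbered arrays of the progenitor groups. Arrays 1 and 2 correlated more strongly across numbers (0.347 and 0.352), so only the third arrays were seen to match by number. The main fit and its standard errors left the numbers out, and a block by number was an alternative. With cTnT+ the deviations of same-numbered arrays correlated at 0.023 to 0.095. Alternatives were the replicate block, median centring or quantile normalization, leaving out the dimmest 25% of genes, trend and robust moderation, array weights, the mean transcript cluster, a fit of the compared groups, replicates 1 and 2 only, and leaving out each array.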

Additional observations from a re-analysis of the deposited data

Results flagged for a closer look

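Sesn2 and Ddit4 differed in sign between groups in the contrast of the third array with the mean of the first and second. For Sesn2 the difference was 1.51 in Flk1+Pdgfra+, 1.20 in Flk1+ and -0.11 in cTnT+ (log2). For Ddit4 it was 2.37, 1.88 and -0.26. In both progenitor groups the third array lay above both others, and in cTnT+ it lay below both. For each gene the third cTnT+ array was barely below the lower of the others. Its difference was smaller than that gene's gap between the first and second cTnT+ arrays, a gap of up to 0.47 over the members. No direction in cTnT+ is read from it. The difference between groups was not tested, because a single array per group was set against the others.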

How the results depend on the processing

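The median difference of the third array over the members moved by less than the spread under quantile normalization, median centring and the mean transcript cluster. With the replicate number as a block, genes called were 1571 in Flk1+Pdgfra+ against Flk1+ (1562 without it), and no count of genes or of other targets moved by over 1.5 times. Counts of the 45 other targets moved as follows. Higher in Flk1+Pdgfra+ against Flk1+ (1) became 2 with trend and robust moderation, 12 with array weights, 6 with replicates 1 and 2 only and 2 in the blocked fit of the 6 progenitor arrays, chosen after seeing the data. Lower there (2) became 11 with array weights, 4 with replicates 1 and 2 only and 6 in that blocked fit. Genes called there (1562) became 7538 with array weights and 2535 with replicates 1 and 2 only. In cTnT+ against Flk1+Pdgfra+, 11 higher became 20 with replicates 1 and 2 only and 8 lower became 13 with median centring. In cTnT+ against Flk1+, 10 higher became 16 with replicates 1 and 2 only, and 7 lower became 15 with median centring and 12 with quantile normalization. Median centring moved the median of all genes to -0.324 and -0.283 in the cTnT+ comparisons. The cause was not tested. Leaving out 1 array gave 664 (without Flk1+ replicate 2) to 2309 (without Flk1+ replicate 3) genes called between the progenitor groups, 4903 to 6607 in cTnT+ against Flk1+Pdgfra+ and 4536 to 5990 against Flk1+. Other targets higher ranged from 0 to 6, 7 to 14 and 6 to 15 in these comparisons, with the upper end without Flk1+ replicate 3, and lower from 1 to 4, 7 to 9 and 7 to 8. Of the member differences under alternatives 548 moved by less than the spread and 2 by more, those of Aen in cTnT+ with median centring, -1.27 and -1.46. A change of sign within the spread was not counted as a move. Between the progenitor groups Btg2 ran from -0.74 to 0.42, Trp53inp1 from -1.37 to 0.14 and Sesn2 from -0.78 to 0.13. Ccng1 ran from -0.36 to 0.11 and Ddit4 from -1.37 to 0.05, while the remaining members stayed below 0. Signs also changed for Ccng1, Mdm2, Cdkn1a and Eda2r in cTnT+ comparisons. Of other named genes 4009 values kept their side of the threshold, 217 lost and 159 gained it.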
